A study of Mus musculus with 24 samples.

Results

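Of the 14427 genes counted in 24 RNA-seq libraries, 735 changed in the same direction in all 6 astrocyte lines that carried a mutant p53, when each line was compared with the p53 knockout line of its own culture. A gene was taken as a member when edgeR's quasi-likelihood test gave a Benjamini-Hochberg adjusted p of 0.05 or less, with the same sign, in each of the 6 comparisons. Of the members, 366 rose and 369 fell, which are 2.54% and 2.56% of all genes tested. Together they are 5.09% of the genes. Ranked by the smallest of the 6 effects among genes with enough counts, the leading rises beside Trp53 itself were in Tmem130, Dlgap2, and Car11, and the leading falls were in Xirp2, Mdk, and Soga3. Among the gene groups, 6 of 28 glycolysis and hypoxia genes and 7 of 31 proteasome subunits fell and none rose. These are 21.4% and 22.6%, against 2.56% of all genes. Of 35 lysosome genes 6 rose and none fell, or 17.1% against 2.54%. Relative to the median gene of their chromosomes, 9 glycolysis and hypoxia genes but only 2 proteasome subunits fell, and 5 lysosome genes rose.

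The lines were primary cortical astrocytes of postnatal day 1 pups, from 1 male culture (labelled m1) and 1 female culture (labelled f1), each pooled from at least 3 pups, and the labels give passages 10 to 15. All 8 lines started as Trp53 f/- cells, with 1 floxed and 1 deleted allele, and all received a lentivirus with Cre recombinase and puromycin resistance, which removes the floxed allele. The 2 p53 KO lines (labelled cre) carried no p53 vector. The 6 mutant lines had first been transduced with a pMSCV retrovirus in which Trp53 with the R172H, Y202C, or Y217C change is followed by an IRES and eGFP, and had been sorted for eGFP. The mutant p53 was therefore overexpressed from a viral promoter without a wild-type copy, each line came from 1 transduction, and the mutation, the retrovirus, and the sort cannot be told apart in these comparisons. Every line had 3 libraries, which the methods describe for cell culture work as separate thaws and platings, so the spread behind the p-values is that of thaws of 1 line, and animals and transductions add nothing to it. The 3 comparisons of a culture share 1 p53 KO line, so a gene that is unusual in that line moves in all 3 of them.

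p53 is a transcription factor that binds DNA as a tetramer and activates genes of cell cycle arrest, apoptosis, and DNA repair. Missense changes in its DNA-binding domain remove most of this activity, and the mutant protein often accumulates in tumors. Some mutants are known to act through other transcription factors, which is called gain of function.

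The libraries held between 52787288 and 136503809 counts. The defining astrocyte markers Gfap, Aqp4, and S100b were near 0 in most libraries, with Gfap between 0 and 8.37 CPM (read counts scaled to the library total with edgeR's TMM factors) and highest in male Y217C, while Gja1 lay between 77.3 and 238 CPM and Vim between 3260 and 5130 CPM. The astrocyte markers differed between lines. Those measured summed to between 275 CPM in male Y202C and 924 CPM in male Y217C. Slc1a3 was at 281 CPM in female R172H and at 3.14 CPM in female Y217C. The 14 measured markers of mural cells and meningeal fibroblasts summed to between 12200 and 48200 CPM per line. None of the 16 measured astrocyte markers changed in the same direction in all 6 lines, where 5.09% of all genes did. Of the 16, 14 rose in at least 1 line and fell in another. Of 11 listed endothelial markers 7 were measured, and Pecam1 was not among the genes counted. The 7 summed to 230 CPM in the male and 256 CPM in the female p53 KO line, and to between 59 and 180 CPM in the mutant lines. Kdr and Esam, an endothelial receptor and an adhesion molecule, fell in all 6, which is 28.6% of the 7 against 2.56% of all genes. Kdr overlapped between the groups, with 5.16 to 12.1 CPM in p53 KO and 0.763 to 9.09 CPM in the mutants. Of the 7 markers, 4 rose in at least 1 line and fell in another. Cdh5, the cadherin that defines endothelium, was at 33.3 CPM in male p53 KO and at 0.444 to 4.69 CPM in the male mutant lines. In females it was at 2.2 CPM in p53 KO, 1.9 CPM with R172H, 4.89 CPM with Y202C, and 0.297 CPM with Y217C. Whether such cells were present, and whether their loss has a part in the falls, was not tested. In bulk samples fewer cells of a type and less RNA per cell cannot be told apart.

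Trp53 (ENSMUSG00000059552, chr11:69580359-69591873 of GRCm38, plus strand, protein coding) separated the groups as their labels say. It was counted at 53.7, 50.7, and 48.2 CPM in male p53 KO and at 51.9, 46.5, and 48.4 CPM in female p53 KO. In the male lines it reached 2310, 2200, and 2350 CPM with R172H, 2440, 2270, and 2260 CPM with Y202C, and 1190, 1250, and 1210 CPM with Y217C. In the female lines it reached 1890, 2020, and 1960 CPM with R172H, 602, 605, and 572 CPM with Y202C, and 3550, 3870, and 3710 CPM with Y217C. All 18 mutant libraries were above all 6 p53 KO libraries, and female Y202C had the lowest and female Y217C the highest level among the mutants. The log2 fold changes ran from 3.60 to 6.24, with standard errors of 0.059 to 0.067 and a largest adjusted p of 3.33e-23 by edgeR. The counts are per gene, so the exons behind the reads that remained in the p53 KO lines were not examined.

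The single comparisons moved very many genes, and the shared set has to be read against them. In males, 40.7% of genes passed the threshold with R172H, 73% with Y202C, and 70.5% with Y217C, and in females 69.7%, 68.6%, and 56.7% passed in the same order. The shares that rose were 20.2%, 37.6%, and 34.9% in males and 34.4%, 34.3%, and 28% in females, and those that fell were 20.5%, 35.4%, 35.6%, 35.3%, 34.3%, and 28.7%. Without a threshold, 20.3% of genes had 1 sign in all 6 comparisons. Of the 1908 genes past the threshold in all 6 comparisons, which are 13.2% of all, 38.5% were changed in 1 direction throughout and the others changed direction between lines. The male lines shared 982 rises (6.81%) and 1014 falls (7.03%), and the female lines shared 1767 rises (12.2%) and 1932 falls (13.4%). The members made up 37.3% of the shared male rises and 20.7% of the shared female rises. For falls these shares were 36.4% and 19.1%. The opposite patterns were rarer. A rise in all 3 male lines with a fall in all 3 female lines was found for 32 genes, or 0.222%, and the reverse for 34, or 0.236%. By these counts the 2 cultures, which share no library, had more genes that moved together than apart.

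Most shared changes were small. The median over the 366 rises of the mean log2 fold change was 0.64, against 0.0043 over all genes, and that over the 369 falls was -0.59. A change of more than 0.5 on the log2 scale in each of the 6 lines was reached by 65 rises and 76 falls, which are 0.451% and 0.527% of all genes, and a change of more than 1 by 13 rises (0.0901%) and 26 falls (0.18%). Male R172H was the line closest to its p53 KO, with median log2 fold changes of 0.38 over the rises and -0.36 over the falls, where male Y202C had 0.82 and -0.70. It held the smallest of the 6 effects for 329 members, or 44.8%. A further 906 genes kept 1 sign in all 6 lines and passed the threshold in 5, and 511 of these missed it in male R172H. The members just inside the threshold had a largest adjusted p of 0.0499, and the nearest gene outside had 0.0503. When instead the largest of a gene's 6 unadjusted p-values was adjusted over all genes, 154 rises (1.07%) and 148 falls (1.03%) passed.

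Individual libraries give a description that does not rest on the model's test, although the CPM carry the same TMM factors. All 18 mutant libraries lay above all 6 p53 KO libraries for 285 genes, or 1.98% of those tested, and below them for 314 genes, or 2.18%. Of the shared rises, 231 had this separation, and of the shared falls, 249. Against the p53 KO line of their own culture alone, 450 genes (3.12%) were higher and 462 (3.2%) lower without overlap in all 6 comparisons, among them 319 of the shared rises and 339 of the shared falls. As members were chosen for a shift in these same libraries, their counts here are a description and not a test. The 6 effects of a member differed in size about as often as those of any gene. A test of the 6 effects against each other passed the threshold for 713 of the 735 members (97%), against 95.6% of all genes. The mean effect differed between males and females for 292 members (39.7%), against 52.8% of all genes.

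With the line instead of the library as the unit, no gene passed the threshold. The 6 mutant line means were compared with the 2 p53 KO line means by limma with a term for the culture, and 0 genes had an adjusted p of 0.05 or less, with a smallest value of 0.318. At an unadjusted p under 0.05 there were 863 genes, or 5.98% of all, with 443 higher (3.07%) and 420 lower (2.91%), and without the culture term there were 986. Of the 735 members, 513 had such a p. Members were chosen for a shared sign in these same libraries, so that share is a description and not a test. Mdk had the smallest p among the named genes, 3.5e-05, followed by Trp53 with 4.4e-05. With 2 p53 KO lines, moving the p53 KO label within each culture gives 16 placements, so a permutation test over lines cannot fall below 0.0625.

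The rises with the largest smallest effect were led by Tmem130 and Trp53, and most of the genes after them had low levels. Tmem130 (ENSMUSG00000043388, chr5:144735915-144761818), which encodes a transmembrane protein, was counted at 0.242, 0.262, and 0.183 CPM in male p53 KO and at 0.108, 0.141, and 0.0966 CPM in female p53 KO. It stood between 1.38 and 13.9 CPM in the 18 mutant libraries, with no overlap. Its log2 fold changes ran from 4.0 in female Y202C to 6.84 in female Y217C, with a largest adjusted p of 3.28e-13 by edgeR. These are also the lines with the least and the most Trp53. The counts of Tmem130 per 1000 Trp53 counts were 1.99 to 5.18 in the p53 KO libraries and 2.30 to 5.16 in the mutant libraries, so the ranges of the 2 groups overlapped. Zan, a sperm membrane protein gene that overlaps Ephb4 on the other strand, went from 0.290 to 0.686 CPM in p53 KO to 1.14 to 8.86 CPM in the mutants, with 1.89 to 4.33 counts per 1000 Trp53 counts in the mutant libraries against 5.40 to 14.2 in p53 KO. Bcas1, which was too low to be named by rank, had 0.124 to 0.561 counts per 1000 Trp53 counts in the mutants and was between 0 and 0.0397 CPM in p53 KO. Whether these counts are reads of the vector or of Trp53 that were placed on other genes was not tested.

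**Figure D1:**
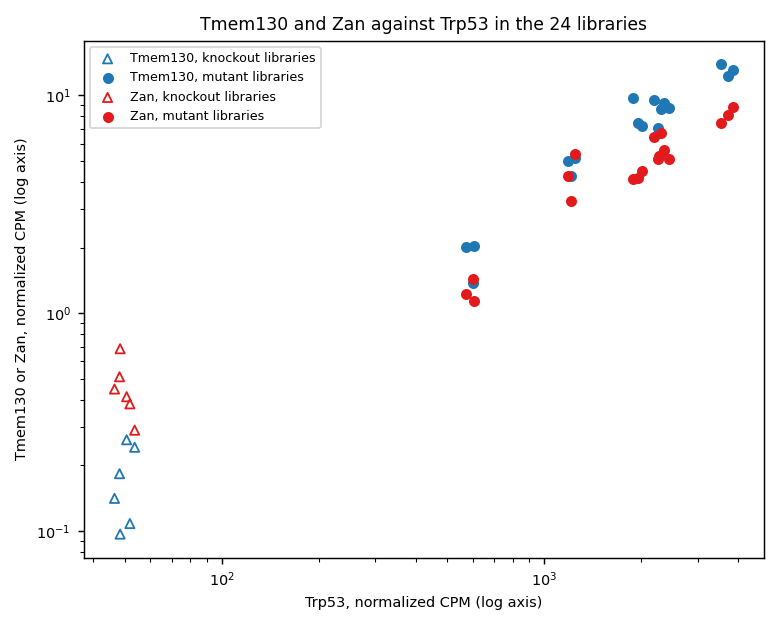
Normalized CPM of Tmem130 (blue) and Zan (red) on the vertical axis against Trp53 on the horizontal axis, both on log axes, with 1 point for each of 24 libraries, triangles for p53 KO and filled circles for mutant lines. Tmem130 lies between 0.0966 and 0.262 CPM in p53 KO and both genes are lowest in the mutant libraries where Trp53 is lowest, at 572 to 605 CPM.

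Among the other leading rises, Myo7a (ENSMUSG00000030761, chr7:98051060-98119524), an unconventional myosin of sensory hair cells, had 6 effects within a narrow range. It was counted at 41.4, 42.8, and 43.9 CPM in male and 34.7, 34.4, and 35.1 CPM in female p53 KO. In the mutants it was at 80.5, 91.8, and 78.6 CPM in male R172H, at 123, 109, and 93.3 CPM in male Y202C, and at 131, 131, and 134 CPM in male Y217C. In females it was at 106, 91.7, and 100 CPM with R172H, at 78.9, 88.4, and 87.2 CPM with Y202C, and at 72.5, 71.5, and 68.5 CPM with Y217C. The groups did not overlap, and every log2 fold change was between 0.97 and 1.63 with a standard error of 0.076 or 0.077. Its largest adjusted p was 4.15e-10 by edgeR, and its mean effects in males and females differed by 0.037 on the log2 scale, with an adjusted p of 0.756 by edgeR.

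Cd74, the invariant chain of MHC class II, was counted at 1.82 to 3.88 CPM in the 6 p53 KO libraries and at 4.03 to 23.7 CPM in the 18 mutant libraries. It was lowest among the mutants in female Y202C, at 4.22, 4.05, and 4.03 CPM, and the groups did not overlap. Podn, which encodes a secreted leucine-rich repeat proteoglycan, rose from 16.4 to 47.1 CPM in p53 KO to 58.9 to 125 CPM in the mutants. Podn overlaps Scp2 on the same strand, so reads in the shared stretch cannot be assigned to 1 of them. The carbonic anhydrase-related gene Car11 went from 0.834 to 1.60 CPM to 2.91 to 15.1 CPM, and was highest in male Y202C. The zinc finger gene Zfp273 stood at 1.69 to 2.36 CPM in p53 KO and at 3.29 to 9.66 CPM in the mutants. Gng7, a G protein gamma subunit, stood at 1.16 to 1.95 CPM against 2.69 to 6.92 CPM. For the long noncoding RNA A330074K22Rik the p53 KO libraries had 4.60 to 6.51 CPM and the mutant libraries 11.1 to 27.1 CPM. None of these 6 genes overlapped between the groups.

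The remaining named rises were uneven or near the limit of detection. Dlgap2, a postsynaptic scaffold gene, was counted at 0.0242 to 0.164 CPM in p53 KO and at 0.217 to 8.54 CPM in the mutants, where male Y202C with 8.54, 8.11, and 7.75 CPM stood far above female Y202C with 0.597, 0.464, and 0.217 CPM. Il2rb, a subunit of the interleukin-2 receptor, was at 0 to 0.0636 CPM in p53 KO and at 0.126 to 2.42 CPM in the mutants. It was highest in female R172H. Tnfrsf25, a death domain receptor, reached 8.06 to 9.67 CPM in male Y217C, and its lowest mutant library, at 0.881 CPM, was below its highest p53 KO library, at 0.952 CPM. E230016K23Rik, an uncharacterized noncoding RNA, overlapped in the same way. The small Cajal body RNA Gm22009, which lies within Kpna4 on the same strand, had overlapping groups and a largest adjusted p of 0.0371 by edgeR, and it lost its call in several of the alternatives.

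**Figure D2:**
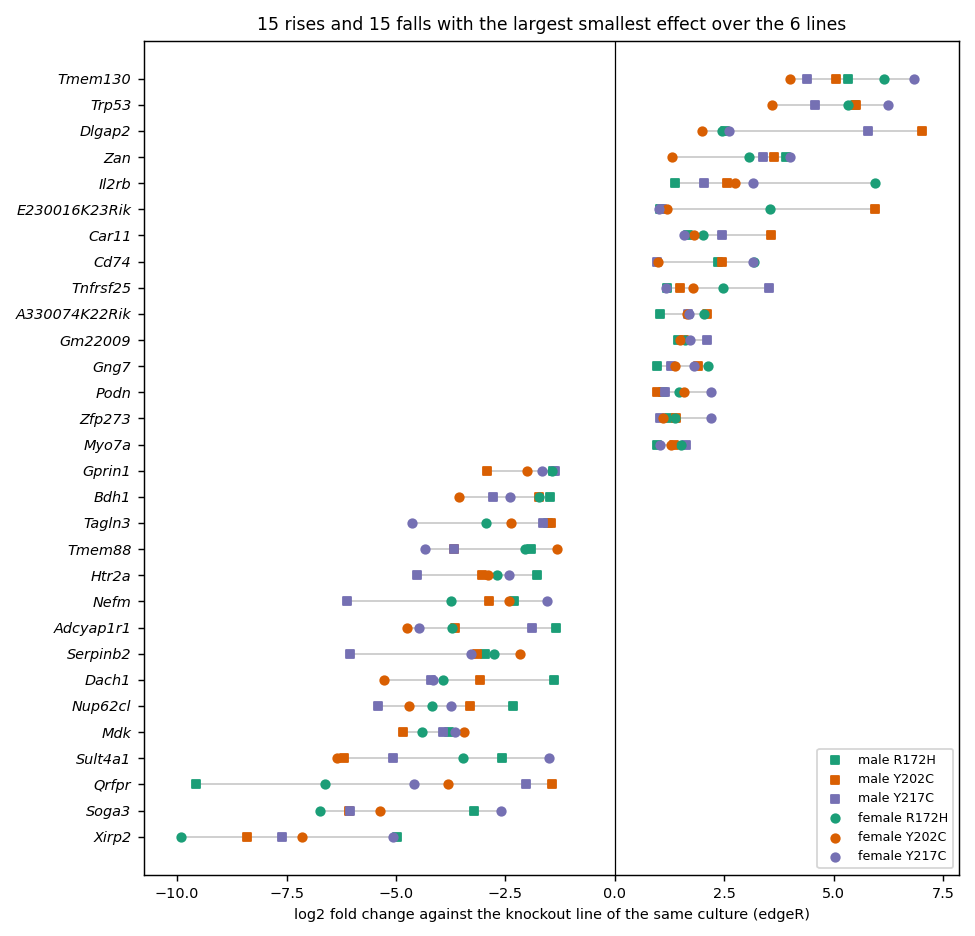
Log2 fold change (horizontal axis) of the 15 rises and 15 falls with the largest smallest effect, 1 row per gene, with squares for the 3 male and circles for the 3 female mutant lines. All 6 points of a gene lie on 1 side of 0, Myo7a is among the narrowest at 0.97 to 1.63, and the widest rows, Dlgap2, Qrfpr, and Xirp2, belong to genes with very few counts on 1 side, so that the points of Xirp2 and Qrfpr in lines with 3 counts or fewer per library depend on the prior count.

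Mdk (ENSMUSG00000027239, chr2:91929805-91932297, minus strand), the heparin-binding growth factor midkine, had the most even of the large falls. It was counted at 7.70, 8.37, and 8.36 CPM in male and 4.22, 4.62, and 4.41 CPM in female p53 KO. In the 18 mutant libraries it stood between 0.180 and 0.678 CPM, on 15 to 70 counts, so that the groups were far apart. Its log2 fold changes ran from -3.46 in female Y202C to -4.84 in male Y202C, with standard errors of 0.214 to 0.237 and a largest adjusted p of 3.79e-12 by edgeR. The mean effects in males and females differed by -0.36 on the log2 scale, with an adjusted p of 0.224 by edgeR.

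Xirp2, which encodes an actin-binding protein of striated muscle, fell from 9.09, 4.69, and 4.74 CPM in male and 11, 11.4, and 8.68 CPM in female p53 KO to between 0 and 0.561 CPM in the mutants. In female R172H its 3 libraries held 0, 0, and 3 counts, so no fold change is given for that line. Soga3 fell from 3.59 to 4.57 CPM to between 0.0250 and 0.661 CPM. It was least reduced in male R172H and female Y217C. Serpinb2, plasminogen activator inhibitor 2, went from 2.71 to 7.15 CPM to 0.0402 to 1.55 CPM, and Bdh1, which interconverts ketone bodies, from 6.27 to 10.5 CPM to 0.728 to 3.11 CPM. Groups did not overlap for any of these genes.

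The other named falls were at low levels. Htr2a, a serotonin receptor, went from 5.04 to 9.53 CPM in p53 KO to 0.246 to 1.94 CPM in the mutants, and Adcyap1r1, the receptor of the neuropeptide PACAP, from 0.644 to 3.96 CPM to 0.0542 to 0.368 CPM. Nefm, the medium neurofilament chain, went from 0.871 to 2.33 CPM to 0 to 0.419 CPM, and Gprin1, which acts in neurite outgrowth, from 0.715 to 1.5 CPM to 0.107 to 0.611 CPM. Sult4a1, a brain sulfotransferase, fell from 5.84 to 8.81 CPM to 0.0384 to 3.32 CPM and kept the most in female Y217C. All 5 of these genes were without overlap. Tagln3, a neuronal transgelin, and Qrfpr, the receptor of the peptide QRFP, had overlapping groups, and their p53 KO lines differed from each other. Qrfpr was at 6.77 to 7.11 CPM in male and 0.386 to 0.525 CPM in female p53 KO, and was at 3 counts or fewer in every library of male R172H, female R172H, and female Y217C. The transcription factor Dach1, the nucleoporin-like gene Nup62cl, and the membrane protein gene Tmem88, which overlaps Naa38 on the other strand, completed the list. They were at 0 to 0.229 CPM, 0 to 0.232 CPM, and 0.0443 to 2.67 CPM in the mutants, each below the lowest p53 KO library. Of the 5 measured neuron markers, Nefm was the only one to fall in all 6 lines, and their sum was 128 CPM in male and 139 CPM in female p53 KO against 81.4 to 154 CPM in the mutant lines.

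The promoters of the first 2 rises and the first 2 falls of this ranking that have an entry in the RefSeq table are shown, since motifs at the start of a gene are the part of the sequence that transcription factors read. Each runs from 250 bases before to 50 bases after the RefSeq start on GRCm38.p6, 5′ to 3′ on the gene's strand, and capitals mark matches to the motifs searched. They are Tmem130 at chr5:144761529-144761828 (minus), Trp53 at chr11:69580109-69580408 (plus), Xirp2 at chr2:67445752-67446051 (plus), and Soga3 at chr10:29143746-29144045 (plus). The retroviral Trp53 is not driven by this Trp53 promoter.
Tmem130: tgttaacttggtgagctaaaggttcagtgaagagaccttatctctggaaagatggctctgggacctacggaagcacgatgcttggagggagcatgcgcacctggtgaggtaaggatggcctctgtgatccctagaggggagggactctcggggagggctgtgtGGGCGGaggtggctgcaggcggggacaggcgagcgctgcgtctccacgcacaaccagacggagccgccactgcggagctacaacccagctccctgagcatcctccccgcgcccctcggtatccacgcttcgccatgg
Trp53: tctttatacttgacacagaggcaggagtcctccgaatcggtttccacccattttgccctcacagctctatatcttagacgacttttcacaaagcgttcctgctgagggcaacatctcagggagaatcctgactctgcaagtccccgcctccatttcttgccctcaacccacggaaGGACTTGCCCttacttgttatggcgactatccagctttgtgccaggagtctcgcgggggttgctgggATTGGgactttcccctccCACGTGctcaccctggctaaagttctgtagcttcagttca
Xirp2: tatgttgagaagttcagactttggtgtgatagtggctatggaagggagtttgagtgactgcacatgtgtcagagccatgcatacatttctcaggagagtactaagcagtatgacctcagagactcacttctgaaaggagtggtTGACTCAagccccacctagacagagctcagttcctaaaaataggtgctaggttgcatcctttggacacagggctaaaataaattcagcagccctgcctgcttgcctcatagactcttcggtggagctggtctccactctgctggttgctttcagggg
Soga3: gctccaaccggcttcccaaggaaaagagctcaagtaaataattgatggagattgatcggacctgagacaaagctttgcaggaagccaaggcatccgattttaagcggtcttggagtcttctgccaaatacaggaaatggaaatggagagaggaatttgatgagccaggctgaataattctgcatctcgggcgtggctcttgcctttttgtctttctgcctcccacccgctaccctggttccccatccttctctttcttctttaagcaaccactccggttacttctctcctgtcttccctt
The capitals mark a GC box in Tmem130, an E-box, a CCAAT box, and a p53 half-site in Trp53, and an AP-1 site in Xirp2, and no motif was matched in the Soga3 window. Over the members, motifs were about as frequent as over all promoters. Both strands were searched in 283 promoters of rises, 287 of falls, and 10290 in all, where a position can count for more than 1 motif. The CCAAT box of NF-Y was found in 37.1% of rises, 40.4% of falls, and 38.9% of all promoters. The p53 half-site was found in 6.71%, 4.18%, and 6.51%, and the AP-1 site TGANTCA in 6.71%, 5.23%, and 4.75%. For the ETS core CCGGAA the shares were 27.2%, 25.8%, and 28.3%, for the Sp1 box GGGCGG 65.4%, 68.6%, and 65.6%, and for the E-box CACGTG 12.7%, 9.41%, and 10.1%.

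The members were unevenly spread over the chromosomes, which bears on every gene group below. Chromosomes 1, 11, and 14 held 205 of the falls, or 55.6%, with 17.4% of the genes tested. On chromosome 1, 84 genes fell and 3 rose, on chromosome 14, 42 fell and none rose, and on chromosome 11, 79 fell and 12 rose. Chromosome 19 went the other way, with 58 rises, 11.9% of its genes, and 1 fall. The median gene of these chromosomes moved too. On chromosome 1 the median log2 fold change was below 0 in all 6 lines, from -0.06 in female R172H to -0.50 in female Y217C, and on chromosome 19 it was above 0 in all 6, from 0.08 in female Y202C to 0.39 in male Y202C. On chromosome 14 it was -0.47 in female Y217C and 0.25 in female R172H. Gene copy number was not measured here, and its part in this pattern was not tested.

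When each gene was compared relative to the median gene of its chromosome in each line, an alternative chosen after the data were seen, 303 genes rose and 211 fell in all 6. Of the 366 rises, 207 were kept, and of the 369 falls, 151. The share of falls then was 1.30% on chromosome 1 and 2.02% on chromosome 14, and the share of rises was 2.25% on chromosome 19. Larger changes were kept more often. Of the 65 rises above 0.5 on the log2 scale, 59 remained, of the 76 such falls, 66, and of the 30 named genes, 28, without Gm22009 and Dach1.

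**Figure D3:**
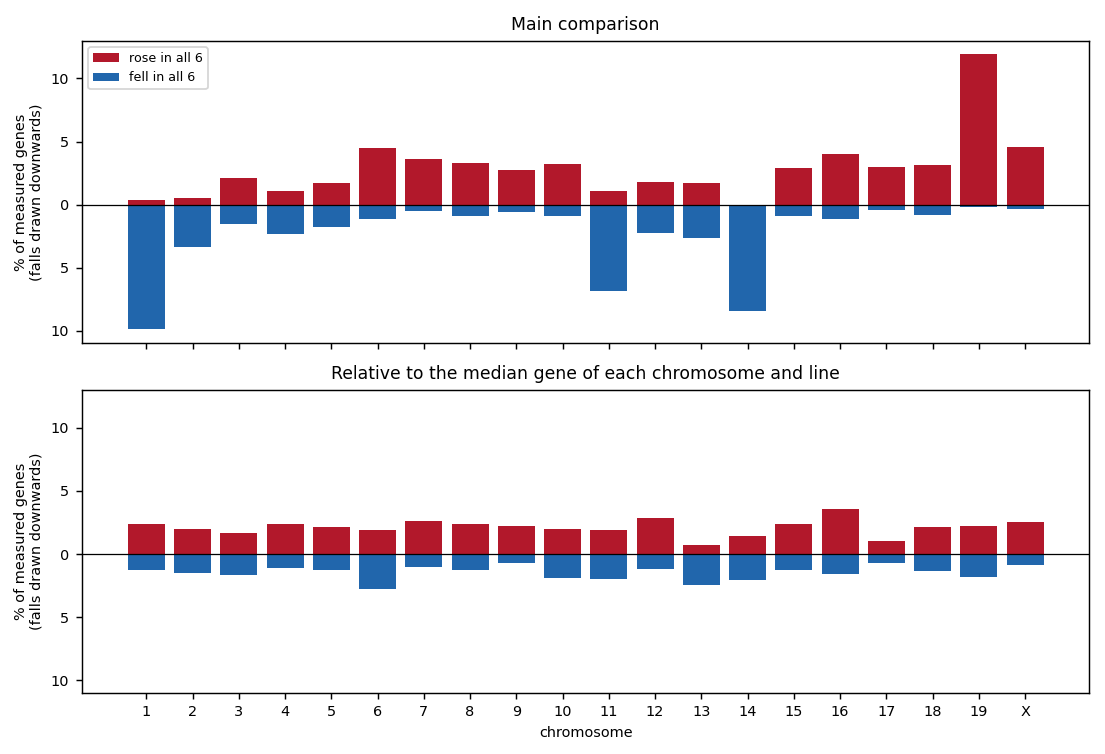
Share of the measured genes of each chromosome that rose (red, upwards) or fell (blue, downwards) in all 6 lines, in percent, in the main comparison (top) and relative to the median gene of each chromosome and line (bottom). In the top panel the falls reach 9.89% on chromosome 1 and 8.47% on chromosome 14 and the rises 11.9% on chromosome 19, and in the bottom panel no chromosome exceeds 3.60% in either direction.

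Of 28 measured genes of glycolysis and the hypoxia response, 6 fell in all 6 lines and none rose, or 21.4% against 2.56% of all genes. In at least 5 lines 12 of them fell, where 9.12% of all genes did. The 6 were Pfkl, Aldoa, Eno1, and Pkm, which are enzymes of glycolysis, Ldha, which makes lactate, and Slc16a3, which exports it. Ldha was counted at 760, 707, and 691 CPM in male and 899, 921, and 873 CPM in female p53 KO and at 327 to 658 CPM in the mutants, so the groups did not overlap. Its log2 fold changes ran from -0.41 in male R172H to -1.08 in male Y217C, with standard errors of 0.081 and a largest adjusted p of 2.97e-04 by edgeR. Eno1 went from 1420 to 1670 CPM to 610 to 1110 CPM, and Slc16a3 from 120 to 138 CPM to 3.76 to 54.6 CPM. Slc16a3 fell more in males, by a difference of mean effects of -1.63 on the log2 scale, with an adjusted p of 7.24e-12 by edgeR. Relative to their chromosomes, these 6 genes were called again and Gapdh, Pgk1, and Pgam1 were added, which makes 9 of 28.

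Of 31 measured proteasome subunits, 7 fell in all 6 lines and none rose, or 22.6% against 2.56% of all genes. These were Psma7 and Psmb3 of the catalytic core and Psmc5, Psmd1, Psmd3, Psmd11, and Psmd12 of the regulatory particle. Psmb3 went from 111 to 122 CPM in p53 KO to 59.8 to 98.9 CPM in the mutants, and Psmd11 from 154 to 169 CPM to 105 to 139 CPM. Of the 7, 5 lie on chromosome 11 and 1 on chromosome 1. Relative to their chromosomes only Psma7 and Psmd11 were called, 2 of 31.

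Of 35 measured lysosome genes, 6 rose in all 6 lines and none fell, or 17.1% against 2.54% of all genes. In at least 5 lines 15 of them rose, where 8.57% of all genes did. The 6 were the membrane protein Lamp2, the enzymes Glb1, Ids, Lipa, and Tpp1, and Psap, which is cut into activators of sphingolipid breakdown. Lamp2 was counted at 200, 220, and 230 CPM in male and 207, 233, and 220 CPM in female p53 KO, and at 270 to 506 CPM in the mutants. It was highest in male Y202C and lowest in male R172H among the mutants, and the groups did not overlap. Its log2 fold changes were between 0.38 and 1.06, with standard errors of 0.077 and 0.078 and a largest adjusted p of 1.93e-04 by edgeR. Psap went from 563 to 698 CPM to 707 to 1750 CPM, and Lipa from 45.3 to 52.6 CPM to 56.2 to 165 CPM. Relative to their chromosomes, 5 of 35 were called, namely Lamp2, Glb1, and Psap with Hexa and Asah1. Of 20 genes of AMPK, mTOR, and autophagy, Atg7 and Map1lc3b rose (10%) and Atg16l1 fell (5%), against 2.54% and 2.56% of all genes. None was called relative to its chromosome.

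**Figure D4:**
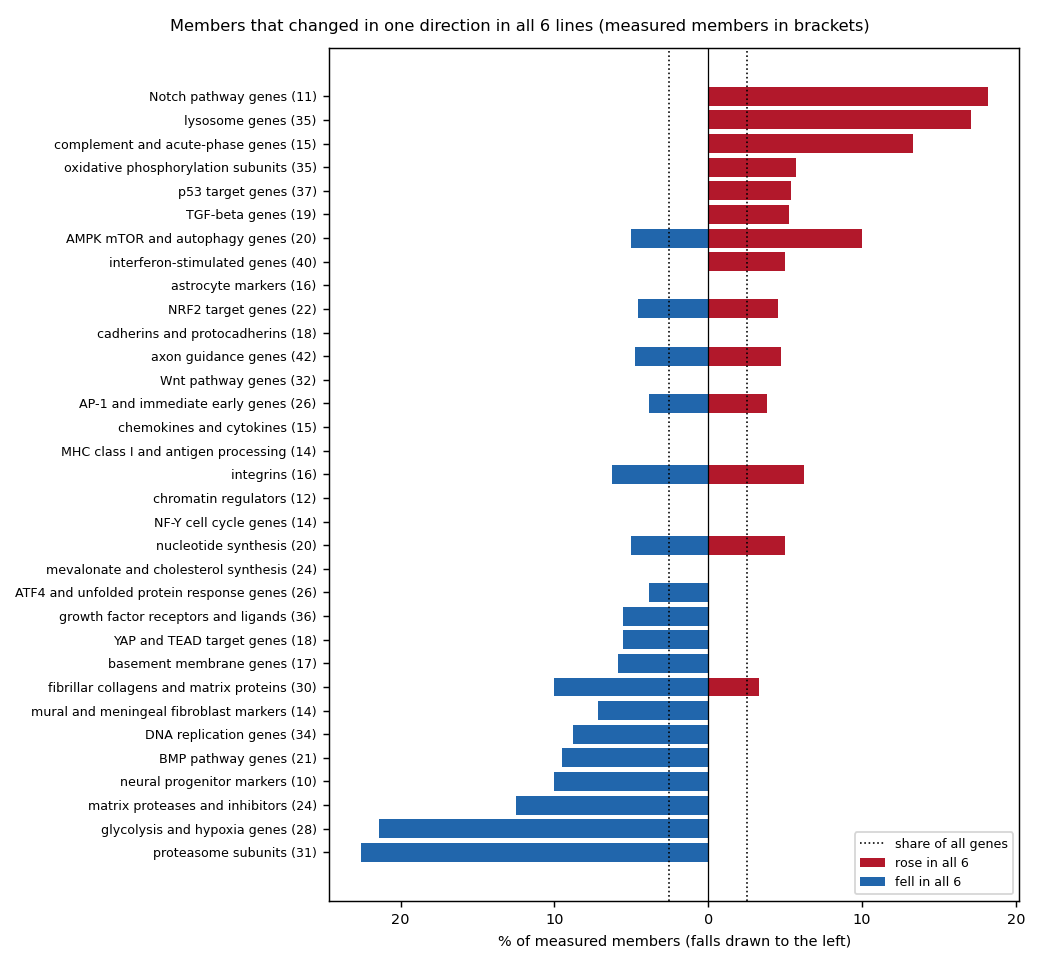
Share of the measured members of each gene list that rose (red, to the right) or fell (blue, to the left) in all 6 lines, in percent. Only lists with at least 10 measured members are drawn, without those added after their values were seen. The lists drawn were also chosen with earlier results of these data known. Dotted lines mark the shares of all genes, 2.54% and 2.56%. Notch pathway genes (18.2%, 2 of 11) and lysosome genes (17.1%) stand farthest to the right and proteasome subunits (22.6%) and glycolysis and hypoxia genes (21.4%) to the left, while several lists have no such member.

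Of 37 measured p53 target genes, 2 rose in all 6 lines and none fell, or 5.41% against 2.54% of all genes. In at least 5 lines 4 of the 37 rose and 3 fell, and 23 changed in both directions between lines. The 2 rises in all 6 lines were Fas, the death receptor, and Trp53inp1, a stress-induced cofactor. Fas was counted at 1.82 to 3.30 CPM in p53 KO and at 3.85 to 12 CPM in the mutants, and Trp53inp1 at 2.89 to 3.93 CPM and 4.29 to 16.5 CPM, both without overlap. Cdkn1a and Mdm2, the best known targets, had mixed signs, with log2 fold changes of -1.01 to 0.54 and of -0.31 to 0.39. Relative to their chromosomes Trp53inp1 and Btg2 were called and Fas, on chromosome 19, was not.

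The immune lists gave rises only, and the stress and immediate early lists together gave members in both directions. The acute-phase gene Serpina3n was at 0 counts in all 6 p53 KO libraries and was found in all 6 mutant lines, with 4.15, 2.56, and 4.34 CPM in male Y217C and 1.87, 2.63, and 2.38 CPM in female R172H. Against a floor of 3 counts over the 3 p53 KO libraries of the culture it was at least 8.28-fold higher in male R172H, on 19 counts, and at least 417-fold higher in male Y217C. Socs3, an inhibitor of cytokine signaling, rose from 15.1 to 21.8 CPM to 24.5 to 103 CPM. These 2 were the rises among 15 complement and acute-phase genes, or 13.3% against 2.54% of all genes. Both were called relative to their chromosomes. Of 40 interferon-stimulated genes, Ifit2 and Bst2 rose, or 5% against 2.54% of all genes. Neither was called relative to its chromosome or at an adjusted p of 0.01 by edgeR. The transcription factor Egr1 rose from 288 to 374 CPM to 485 to 1010 CPM, without overlap, while Etv4 fell. These were the members among 26 AP-1 and immediate early genes, 3.85% each way against 2.54% and 2.56% of all genes. The unfolded protein response list of 26 genes had 1 fall, the chaperone Hspa5 (3.85%). The NRF2 list of 22 had 1 rise, Gstp1, and 1 fall, Pgd (4.55% each). Egr1 was called relative to its chromosome, and Etv4, Hspa5, Gstp1, and Pgd were not.

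In the matrix and adhesion lists the members were more often falls than rises, while many other genes changed direction between lines. Of 30 fibrillar collagens and matrix proteins, Col5a1, Thbs1, and Loxl2 fell (10%) and Ecm1 rose (3.33%). Of all genes, 2.56% fell and 2.54% rose. In this list 22 genes rose in at least 1 line and fell in another. Thbs1, thrombospondin 1, ranged from 6860 to 10600 CPM in p53 KO and from 867 to 7830 CPM in the mutants. The overlap came from female Y217C, which at 7250 to 7830 CPM was below its own p53 KO but not below the male one. Of 24 proteases and inhibitors, Mmp16, Adam19, and Plau fell (12.5%), and 17 changed in both directions between lines. Nid1 fell among 17 basement membrane genes (5.88%), and among 16 integrins Itga5 fell and Itgb5 rose (6.25% each). Relative to their chromosomes, Ecm1, Mmp16, and Itga5 were the only ones of these 10 genes that were called.

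The 36 growth factor receptors and ligands gave falls only, 5.56% against 2.56% of all genes, and axon guidance genes gave members in both directions. Hgf, the ligand of the Met receptor, fell among the growth factor receptors and ligands, and it was not called relative to its chromosome. Among 42 axon guidance genes Sema3b and Plxnd1 rose, and Sema7a and Unc5c fell. These are 4.76% each way, against 2.54% and 2.56% of all genes. All of them but Plxnd1 were also called relative to their chromosomes. Notch3, a Notch receptor, and Maml2, a coactivator, rose among 11 Notch pathway genes, or 18.2% against 2.54% of all genes. Both overlapped between the groups. Notch3 had 11.1 to 19.7 CPM in p53 KO and 18.5 to 79.8 CPM in the mutants, and Maml2 28.8 to 38.7 CPM and 32.2 to 62.8 CPM. Notch3 was called neither relative to its chromosome nor at an adjusted p of 0.01 by edgeR, which leaves 1 of 11. Of 21 BMP pathway genes 9.52% fell and none rose, against 2.56% and 2.54% of all genes. Among these falls was the BMP receptor Acvr1. It changed by small amounts, from 69.4 to 75.3 CPM in p53 KO to 53.6 to 67.1 CPM in the mutants. Smad3 was the 1 rise among 19 TGF-beta genes (5.26%) and Ajuba the 1 fall among 18 YAP and TEAD targets (5.56%). Acvr1, Smad3, and Ajuba were not called relative to their chromosomes.

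Mcm3, Mcm6, and Rfc5, which act in DNA replication, fell among 34 genes of that list, or 8.82% against 2.56% of all genes, and none of these 3 was called relative to its chromosome. Ppat fell and Slc29a1 rose among 20 nucleotide synthesis genes, or 5% each against 2.56% and 2.54% of all genes. Ndufb5 and Cox4i1 rose among 35 oxidative phosphorylation subunits, or 5.71% against 2.54% of all genes. Ppat alone of these 4 was called relative to its chromosome, and at an adjusted p of 0.01 by edgeR neither subunit was. No member was found among 14 NF-Y cell cycle genes, 12 chromatin regulators, 24 genes of the mevalonate pathway, 14 of MHC class I and antigen processing, 15 chemokines and cytokines, 32 Wnt pathway genes, 18 cadherins, 4 microglia markers, or 7 oligodendrocyte lineage markers. Members are 5.09% of all genes, so the lack of a member in lists this short says little. Relative to the chromosomes, B2m of antigen processing rose in all 6, and Dkk2 of the Wnt list and Dna2 of the replication list fell. Among 10 neural progenitor markers Cd44, a hyaluronan receptor, fell (10% against 2.56% of all genes). It went from 550 to 840 CPM in p53 KO to 252 to 408 CPM in the mutants, with log2 fold changes of -0.88 to -1.46, standard errors of 0.080 and 0.081, and a largest adjusted p of 6.41e-09 by edgeR. Rgs5, a marker of pericytes, fell among the 14 mural and meningeal fibroblast markers (7.14%), from 2.5 to 3.33 CPM to 0 to 1.71 CPM.

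**Figure D5:**
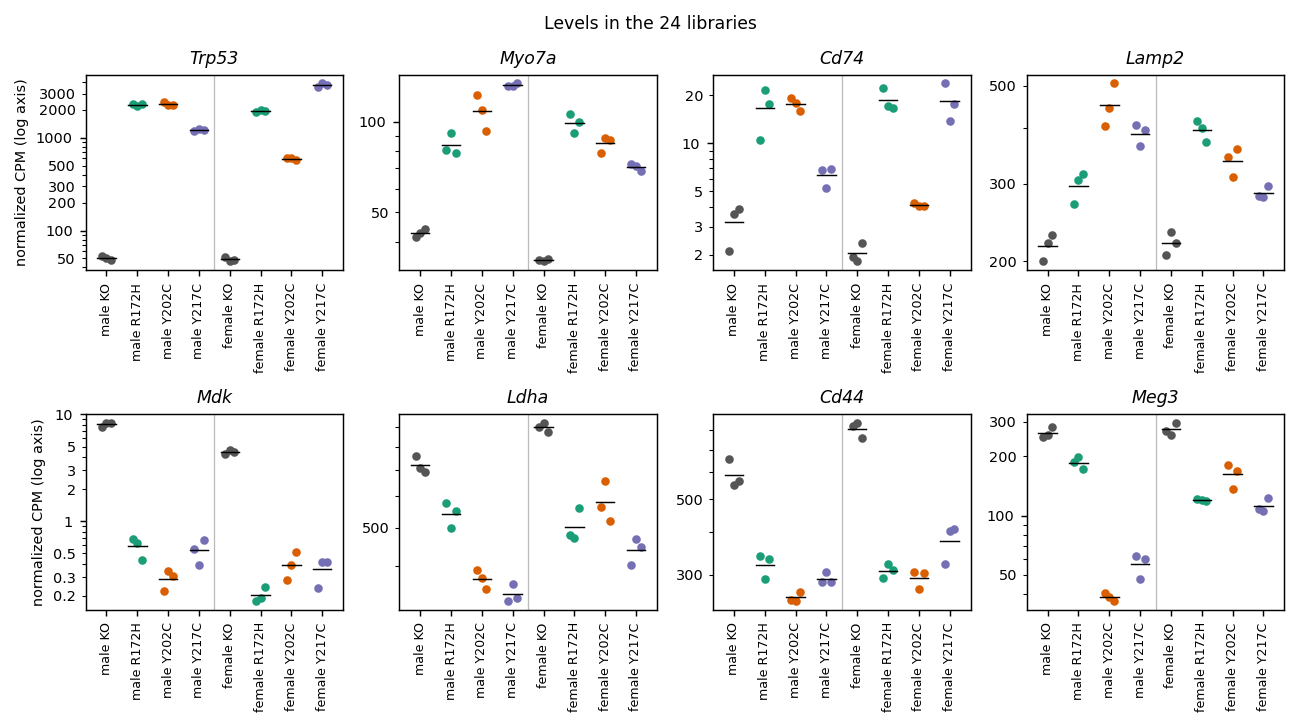
Normalized CPM (log axis) of 8 members in the 24 libraries, with 1 point per library, a line at the mean of the 3 libraries of each line, and males left and females right of the grey rule. Trp53, Myo7a, Cd74, and Lamp2 are above both p53 KO lines in every mutant library, and Mdk, Ldha, Cd44, and Meg3 are below them.

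Further groups were picked after their values were seen, and their counts are a description of what was picked. The maternally expressed imprinted RNAs Meg3, Rian, and Mirg of the Dlk1-Dio3 region on chromosome 12 all fell in all 6 lines and were called again relative to the chromosome. Meg3 was counted at 250, 256, and 283 CPM in male and 271, 256, and 297 CPM in female p53 KO. It was at no more than 199 CPM in male R172H, 36.9 to 40.6 CPM in male Y202C, and 47.7 to 62.0 CPM in male Y217C. The female lines had 118 to 122 CPM with R172H, 137 to 181 CPM with Y202C, and 105 to 123 CPM with Y217C, so no mutant library reached p53 KO. None of the paternally expressed genes Dlk1, Rtl1, and Dio3 of the same region was a member.

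Of 19 circadian clock genes, Dbp, Tef, and Per3 rose and none fell. The PAR-domain factor Dbp, an output of the clock, went from 2.73 to 5.64 CPM in p53 KO to 6.40 to 55.3 CPM in the mutants. It was highest in male Y202C at 52.0 to 55.3 CPM, and the time of day of the harvests is not given in the sources used here. Txnip, an inhibitor of glucose uptake, and the related Arrdc4 rose among 5 arrestin domain genes, with Txnip at 32.4 to 69.1 CPM in p53 KO and 74.6 to 290 CPM in the mutants. The yippee-like genes Ypel3, Ypel4, and Ypel5 rose, 3 of 5. Arrdc4 and Ypel5 were not called relative to their chromosomes.

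Cav1, Cav2, and Cavin3 rose and Cavin2 fell among 6 caveolins and cavins, and Cav1 went from 197 to 221 CPM to 228 to 477 CPM. Of these 4, Cavin3 alone was called relative to its chromosome. Cct3, Cct4, and Cct6a fell among 8 subunits of the TRiC chaperonin, which folds actin and tubulin, and of these Cct4 was not called relative to its chromosome. Of 29 nuclear pore proteins 6 fell, namely Nup35, Nup85, Nup214, Nupl1, Tpr, and Ahctf1, and only Nupl1 was called relative to its chromosome. The translation initiation helicases divided, with Eif4a1 and Eif4a3 falling and Eif4a2 rising, and Eif4a3 was not called relative to its chromosome. Of 15 histone genes of the Hist1 cluster, Hist1h2ae, Hist1h2ao, Hist1h2bj, Hist1h3c, and Hist1h4i fell and none rose. Relative to the chromosome 3 of these were called, without Hist1h2ao and Hist1h4i, and at an adjusted p of 0.01 by edgeR 0 were. Most mRNAs of these genes lack poly(A) tails, and the libraries were made from poly(A) RNA. Hist1h3c was at 2.15 to 3.93 CPM in p53 KO and at 0.0701 to 2.41 CPM in the mutants, with overlap between the groups.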

How the data were processed

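Gene expression was measured by RNA-seq of poly(A) RNA in 24 libraries of 8 astrocyte lines, grouped by the line, sex, and replicate number in the sample labels. The authors aligned reads with STAR 2.5.1a to an Ensembl mouse assembly, counted them per gene with featureCounts, and deposited raw counts without normalization for 14427 genes. The strand of counting is not given in the sources used here. Counts of genes that overlap others are less certain. Symbols and positions came from GENCODE M21 (GRCm38), which matched 14350 identifiers and left 77 without a symbol.

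Counts were fitted in R 4.3.3 with edgeR 4.0.16 (TMM, quasi-likelihood test, 1 mean per line, all libraries), with Benjamini-Hochberg adjustment over all genes of a comparison and a threshold of 0.05. No further filter was applied. Effects of the line were tested with limma 3.58.1 on line means of log2 CPM with a prior count of 2. Fold changes carry the model's standard error, and the count totals limit precision through counting error only. A count of 3 was the floor. The model was tested on simulated data. Figures and lists were made in Python 3.11.15.

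The set of members and the gene lists were chosen with earlier results of these data known, and each list is described by its count beside that of all genes, with no set test. Named genes are Trp53, the 15 rises and 15 falls with the largest smallest effect (counts of 10 or more were required throughout the group with the higher level), and members of the gene lists. Bcas1 and the lists of the clock, arrestin domain, yippee-like, Dlk1-Dio3, caveolin, chaperonin, nuclear pore, helicase, and histone genes, as well as the chromosome offset, were added after their values were seen. Alternatives were DESeq2 1.42.0 and its size factors, limma with quality weights, a filter at a mean of 5 CPM, a threshold of 0.01, separate cultures, a replicate block, the mean of both p53 KO lines, and leaving out each of 24 libraries. Some members of the gene lists are not reported here.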

Additional observations from a re-analysis of the deposited data

Results flagged for a closer look

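For 13 of the 30 named genes the mean log2 fold change differed between the 3 male and the 3 female lines, by edgeR's quasi-likelihood test of that difference with adjusted p of 0.05 or less. Such a difference was found for 52.8% of all genes, and it concerns 1 culture of each sex, so culture and sex cannot be told apart. The differences below are males minus females on the log2 scale.

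Among rises, the mean effects of Dlgap2 and Zan were larger in males, by 2.76 and 0.85, as was that of Car11, by 0.76. Those of Il2rb (-1.96), Tmem130 (-0.74), and Podn (-0.67) were larger in females. The order was not the same with every mutation. Tmem130 rose more in males with Y202C, Car11 more in females with R172H, and Zan more in females with Y217C. For Dlgap2 the mean effects were 5.11 in males and 2.35 in females, with an adjusted p of 0.00128 by edgeR, and for Tmem130 they were 4.92 and 5.66, with an adjusted p of 0.0495 by edgeR.

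Among falls, Serpinb2 (-1.32), Nefm (-1.19), and Sult4a1 (-0.84) fell further in males by the mean. Adcyap1r1 (2.02), Tagln3 (1.77), Dach1 (1.56), and Bdh1 (0.57) fell further in females by the mean. Sult4a1 fell further in females with R172H (-3.46 against -2.59) and Y202C (-6.34 against -6.18), and further in males only with Y217C (-5.07 against -1.52). Nefm fell further in females with R172H (-3.76 against -2.31), and Dach1 and Bdh1 further in males with Y217C. Adcyap1r1 had mean effects of -2.29 in males and -4.31 in females, with the smallest adjusted p of the 13, 6.57e-06 by edgeR. Its female p53 KO level, 2.87 to 3.96 CPM, was also above the male one, 0.644 to 0.975 CPM, while the mutant lines lay between 0.0542 and 0.368 CPM in both. Tagln3 and Dach1 had the same order of p53 KO levels.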

How the results depend on the processing

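The counts of 366 rises and 369 falls were 429 and 485 with limma and quality weights, 383 and 387 with DESeq2, and 337 and 353 with each culture fitted alone. The rises were 2.54% and the falls 2.56% of all genes, and at a threshold of 0.01 they were 1.5% and 1.47%. Against the mean of both p53 KO lines, rises came to 574 (3.98%), and rises above 0.5 on the log2 scale to 109 in place of 65. With the chromosome offset falls came to 211 (1.46%). The cause of these last changes was not tested. Among genes with a mean above 5 CPM, 39 rises and 27 falls were above 0.5 on the log2 scale, with fewer genes tested. When at least 0.5 on the log2 scale was required between the nearest libraries, 35 genes in place of 599 had all mutant libraries apart from all p53 KO libraries.

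Leaving out each library in turn gave 265 to 403 rises and 268 to 384 falls, and 55.2% of the rises and 52.3% of the falls were called in all 24 of these fits. The lowest counts came without male p53 KO replicate 1. The line as the unit gave 0 genes by limma in each of these and without the culture term, where the smallest adjusted p was 0.181. No named gene changed sign in 907 values under alternatives, and 46 of these values lost the call in at least 1 line. They belong to Dach1, E230016K23Rik, Gm22009, Il2rb, Qrfpr, and Tagln3.

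Replicate numbers did not pair the libraries. Deviations from the line means correlated at -0.0175 on average over 36 pairs with the same number and 0.00891 over 72 pairs with different numbers. With the replicate block there were 340 rises and 344 falls, 64 and 75 above 0.5 on the log2 scale.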
